A study of Mus musculus with 52 samples.

Results

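H3K4me1 peaks near transcription start sites (TSSs) that were present in all 3 libraries of FC/FC cells and in none of the 3 libraries of F/F cells were examined in mouse fibroblasts lacking MLL2. The peaks of the 6 H3K4me1 libraries were merged into 114243 regions, of which 30176 had an edge within 5 kb of a TSS and are called promoter regions below. The rule kept 219 of them, 0.726% of the promoter regions, and these are called gained regions. The reverse rule kept 131 lost promoter regions (0.434%). The regions were chosen by their H3K4me1 peak calls, so the H3K4me1 values below are descriptions with no test.

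F/F cells were immortalised mouse embryonic fibroblasts (MEFs) of 1 line, made with the 3T3 method, in which both MLL2 (Kmt2d) alleles carried loxP sites. They were not treated with tamoxifen. FC/FC cells were the same line after 24 h of tamoxifen, which led to excision of exons 3 to 5 of both alleles, and were grown on before harvest, so that genotype and tamoxifen cannot be told apart. The marks were profiled by ChIP-seq in 18 libraries, 3 for each genotype and mark, which the submitters called independent replicates. Where these did not come from separate cultures, the p-values below measure only the spread between libraries.

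In H3K4 methylation, enzymes of the MLL family place 1, 2, or 3 methyl groups on lysine 4 of histone H3. Monomethylation (H3K4me1) is typical of enhancers, where MLL2 and its relative MLL3 act. Trimethylation (H3K4me3) marks active and CpG-rich promoters and is placed mainly by the SET1 and MLL1 family enzymes, and dimethylation (H3K4me2) covers both kinds of element. Around an active TSS, H3K4me1 is commonly low over the start site itself and higher on the flanks of the H3K4me3 domain.

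The H3K4me1 libraries of FC/FC cells held more reads in transcripts (31253262 to 38871331) than those of F/F cells (26714377 to 30528079), without overlap. The number of peaks did not follow this order, with 81444 to 120661 per F/F library and 89026 to 101157 per FC/FC library. The part of depth in the gained regions was not tested. The H3K4me2 library labelled FC/FC replicate 1 lists the catalogue number of the H3K4me1 antibody. Its RPKM across 23043 genes had Spearman correlations of 0.990 to 0.992 with the other H3K4me2 libraries and of 0.822 to 0.857 with the H3K4me1 libraries. H3K4me2 shares, peak cover, and calls that compare the genotypes are given by library or with and without it. Of 12 fibroblast markers, 9 had an H3K4me3 RPKM above 1 in all 6 libraries, led by Twist1, and the summed level was 93.8 to 98.6 in F/F and 93.7 to 96.8 in FC/FC libraries, whereas Postn had a mean of only 0.276. No epithelial, haematopoietic, endothelial, or neural marker exceeded 1 in all 6 libraries, and no marker lay at a gained region. The targeted exons could not be checked in these measurements, since RPKM over the whole gene reports histone marks and not the deletion.

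The gained regions mostly lay beside CpG-rich TSSs rather than in CpG-rich DNA, as did promoter regions in general. The mm10 sequence around the centre of a gained region is shown for Chd1, whose region had the highest mean peak score, and for Kmt2d, the gene deleted in these cells, together with the Kmt2d TSS. Bases are in lower case, on the strand of the gene, with each CpG in capitals. Chd1 encodes a chromatin remodeller that binds H3K4me3 through its chromodomains.
Chd1 gained region, centre, chr17:15708108-15708407: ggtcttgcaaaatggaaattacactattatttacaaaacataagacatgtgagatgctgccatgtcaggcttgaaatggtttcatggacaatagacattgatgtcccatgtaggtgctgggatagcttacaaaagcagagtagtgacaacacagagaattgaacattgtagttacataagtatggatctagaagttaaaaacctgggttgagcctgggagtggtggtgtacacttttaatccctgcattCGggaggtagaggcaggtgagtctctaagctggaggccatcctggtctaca
Kmt2d gained region, centre, chr15:98873093-98873392: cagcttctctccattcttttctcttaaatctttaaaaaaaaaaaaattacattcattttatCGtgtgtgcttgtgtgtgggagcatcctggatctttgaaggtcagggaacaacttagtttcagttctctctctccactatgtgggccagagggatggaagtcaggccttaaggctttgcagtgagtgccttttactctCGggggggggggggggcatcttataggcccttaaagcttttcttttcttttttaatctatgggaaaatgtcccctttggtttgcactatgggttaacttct
Kmt2d TSS, chr15:98871156-98871455: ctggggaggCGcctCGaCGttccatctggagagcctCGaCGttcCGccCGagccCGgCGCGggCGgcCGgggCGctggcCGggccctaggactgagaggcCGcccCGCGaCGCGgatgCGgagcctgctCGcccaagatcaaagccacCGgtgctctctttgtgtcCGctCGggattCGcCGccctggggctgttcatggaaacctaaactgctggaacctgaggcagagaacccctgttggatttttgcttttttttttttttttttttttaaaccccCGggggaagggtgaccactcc

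The 300 bases at the centre of the Chd1 region held 1 CpG and had a GC content of 42.7%. At Kmt2d, the counts were 2 CpGs in the region and 27 in the 300 bases around the TSS, whose GC content was 62.7%. The same contrast held over the gained regions as a class. In the 600 bp around the centre, the median GC content of the 219 regions was 42.8%, and the median was 11.7 CpGs per kb, the same CpG density as in all promoter regions, whose median GC content was 46.2%. A window was called CpG-rich when its GC content was at least 50% and its observed-to-expected CpG ratio at least 0.6. By this measure 25 gained regions (11.4%) were CpG-rich themselves, against 5.78% of all promoter regions, while 177 (80.8%) had a CpG-rich TSS, against 67.6%. Among the lost promoter regions, 60 of 131 (45.8%) had a CpG-rich TSS. Promoter regions with an H3K4me1 peak in all 6 libraries were CpG-rich in 3.82% and had a CpG-rich TSS in 68.7%. The contrast was thus shared with other promoter regions, and gained regions were more often CpG-rich themselves.

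Gained regions that contained a TSS, or that had no H3K4me3 peak, are shown for comparison by Bax and Grin1. Bax, a pro-apoptotic p53 target, had the highest mean score among regions with the TSS inside. Grin1, which encodes a subunit of the NMDA receptor, had the highest CpG density among regions without H3K4me3.
Bax gained region, centre, chr7:45467142-45467441: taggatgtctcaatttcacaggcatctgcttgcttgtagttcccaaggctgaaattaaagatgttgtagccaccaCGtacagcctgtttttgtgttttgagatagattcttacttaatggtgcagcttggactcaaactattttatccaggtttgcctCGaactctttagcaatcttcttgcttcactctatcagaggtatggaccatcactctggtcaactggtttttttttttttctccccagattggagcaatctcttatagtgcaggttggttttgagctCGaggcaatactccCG
Grin1 gained region, centre, chr2:25318869-25319168: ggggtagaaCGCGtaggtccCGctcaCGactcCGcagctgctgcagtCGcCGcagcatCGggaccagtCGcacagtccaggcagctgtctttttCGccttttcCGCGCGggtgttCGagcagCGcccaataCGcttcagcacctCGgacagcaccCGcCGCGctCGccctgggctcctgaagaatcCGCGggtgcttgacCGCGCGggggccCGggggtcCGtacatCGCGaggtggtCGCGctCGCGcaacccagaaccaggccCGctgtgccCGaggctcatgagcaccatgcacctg

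These windows held 4 and 36 CpGs, respectively. The 219 regions were thus of more than one sequence type, with from 1.67 to 122 CpGs per kb among the 27 that had no H3K4me3 peak.

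Most gained regions flanked a TSS at short range. Their median width was 1170 bp (620 to 3539 bp), and the median distance from the region edge to the TSS was 295 bp, compared with 473 bp for all promoter regions and 1977 bp for lost ones. The TSS lay inside 44 regions, 108 lay downstream of it, and 67 upstream. Their centres fell in introns in 119 cases, between genes in 73, in non-coding exons in 10, in coding exons in 9, and in untranslated exons in 8 (GENCODE vM21). In 20 cases, the TSS was divergent, with a start on the other strand within 1000 bp (9.13%, against 7.99% of all promoter regions). The regions were spread over chromosomes, with at most 20 on 1 chromosome (chromosome 2).

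The balance of gained against lost regions differed with distance and with H3K4me3. Of the regions with a TSS inside, 44 were gained and 26 lost. Of those with the edge 1 to 500 bp from a TSS, 97 were gained and 13 lost. From there to 1000 bp, 44 were gained and 6 lost. From 1000 to 2000 bp, the balance was the other way, with 10 gained and 21 lost, and from 2 to 5 kb 24 were gained and 65 lost. Beyond 5 kb, among 84067 distal regions, 272 were gained and 775 lost. Of the 19181 promoter regions with an H3K4me3 peak in all 6 libraries, 177 (0.923%) were gained and 16 (0.0834%) lost. Of the 1196 with an H3K4me3 peak in only some libraries, 15 (1.25%) were gained and 2 (0.167%) lost. Of the 9799 with no H3K4me3 peak in any library, 27 (0.276%) were gained and 113 (1.15%) lost. Distal regions were split in the same manner, with 19 gained and 1 lost where all 6 H3K4me3 libraries had a peak, and 250 gained and 773 lost where none had.

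**Figure D1:**
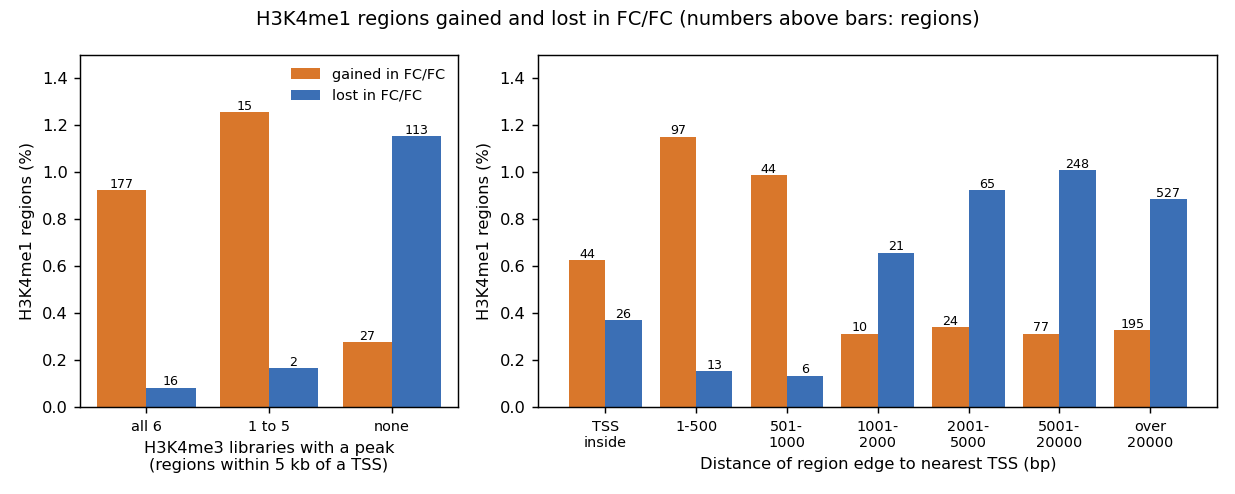
Share of merged H3K4me1 regions that were gained (orange) or lost (blue) in FC/FC cells, in percent of the regions of each class, by H3K4me3 peaks (left, promoter regions) and by distance to the nearest TSS (right, all regions). Gained regions outnumber lost ones within 1000 bp of a TSS, less so where the TSS is inside (44 against 26). They also do so with H3K4me3 peaks in all 6 libraries (177 against 16) or in only some (15 against 2). Lost ones outnumber gained ones beyond 1000 bp and where no library has an H3K4me3 peak. The numbers above bars are counts of regions.

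The whole set of H3K4me3-marked promoter regions showed how far single libraries differed. An H3K4me1 peak was present at 81.3%, 72.5%, and 87.8% of those 19181 regions in the 3 F/F libraries and at 89.1%, 87.5%, and 89.0% in the 3 FC/FC libraries. The groups overlapped, since the third F/F library lay above the second FC/FC library. At the 9799 promoter regions without H3K4me3 the shares were 73.1%, 60.5%, and 74.7% in F/F and 66.7%, 60.6%, and 62.0% in FC/FC, and also overlapped. Just outside the rule were 897 promoter regions with a peak in all 3 FC/FC and 1 F/F library. That F/F library was the third in 553 of them, the first in 229, and the second in 115. The median score in these regions was 97.0 for the mean of the FC/FC libraries and 84.7 for the F/F peak.

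Peak scores of the gained regions were low, as were those of lost promoter and gained distal regions. The score is the p-value of a MACS peak on a negative log10 scale, multiplied by 10, with a minimum of 50 in the lists. The median score of the 219 regions was 84.8, 78.5, and 81.7 in the 3 FC/FC libraries, and the mean over the libraries ran from 54.3 to 214 per region. It exceeded 100 in 68 regions, all 3 scores reached 100 in 12 regions, and the lowest of the 3 was under 60 in 82. Median scores were 88.5, 70.1, and 93.3 at lost promoter regions in the F/F libraries. At gained distal regions they were 74.9, 70.3, and 80.1 in the FC/FC libraries. At all promoter regions with a peak they were 181, 172, and 172 in the FC/FC libraries. The nearest F/F peak was 1018 bp from a gained promoter region at the median. It was within 1000 bp of 108 regions, and more than 10000 bp from 37.

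The highest scores were found at genes of varied function. The Chd1 region (chr17:15706489-15710027), in an intron 1522 bp downstream of the TSS, scored 125, 75.9, and 441 in the 3 FC/FC libraries, so that the third library set its rank. An F/F peak ended 65 bp from this region. At Nabp2, which encodes a single-stranded DNA binding protein of the DNA damage response, the region 34 bp upstream of the TSS scored 125, 188, and 321. The Rpl15 region, at a gene of the large ribosomal subunit, scored 115, 135, and 209, and that of Atp5g3, a subunit of mitochondrial ATP synthase, 101, 173, and 147. The Smarcc1 region, at a SWI/SNF remodelling subunit, scored 110, 105, and 189. At Cep135, a centriole gene, the scores were 62.0, 261, and 136, with the nearest F/F peak 48155 bp away. Further regions among the 12 with the highest mean scores lay at Acot2 (mean 151), Tssc1 (146), Lrriq3 (145), Fbxl12os (139), and Arl14ep (134). Each of these 12 regions had H3K4me2 and H3K4me3 peaks in all libraries. Scores of 1 region often differed by more between FC/FC libraries than the mean scores of neighbouring regions did.

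**Figure D2:**
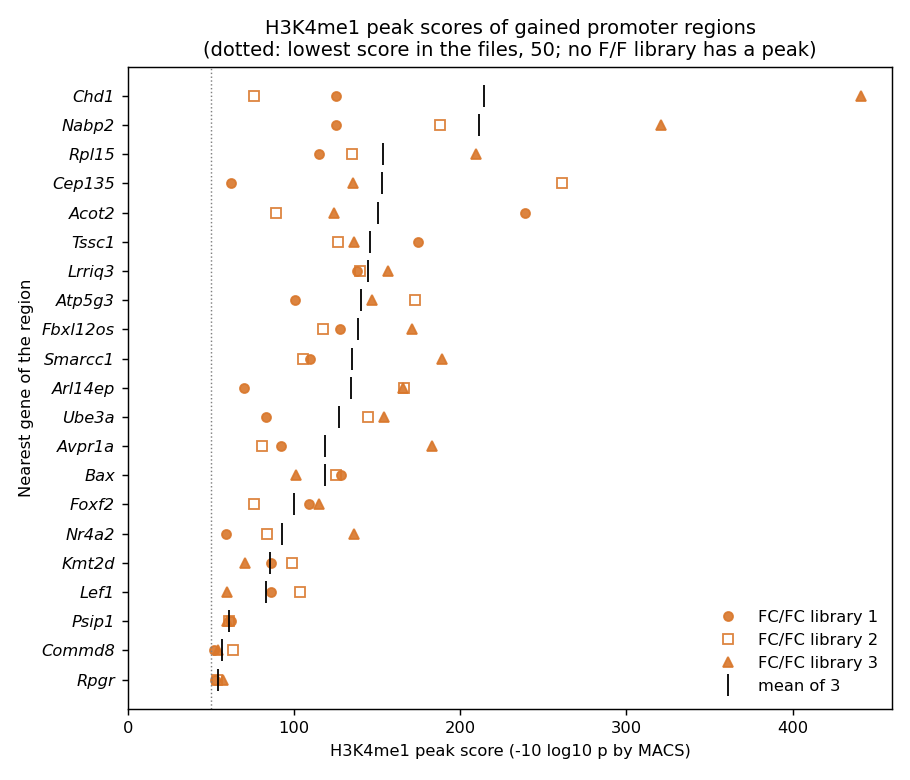
H3K4me1 peak scores (MACS p-values on a negative log10 scale, multiplied by 10) of 21 gained regions in the 3 FC/FC libraries (orange symbols) with their mean (black tick), named by nearest gene. Most lie between 50 and 200, and the high means of Chd1 and Nabp2 rest mainly on the third library.

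Gene lists of the pathways of interest held few gained regions. Of 15818 genes nearest to a promoter region, 218 (1.38%) had a gained region, and 1 of these, 0610037L13Rik, had 2. In the list of H3K4 methyltransferase complexes, 2 of 25 genes had one, Kmt2d and Psip1. The Kmt2d region (chr15:98872553-98873934) lay 1348 bp upstream of the TSS, in a non-coding exon of 5730414N17Rik, and scored 86.3, 99.0, and 70.7. The Psip1 region, 226 bp upstream of the TSS of a gene whose product binds chromatin together with MLL1 complexes, scored 62.4, 60.7, and 59.8. None of the 6 H3K4 demethylase genes had one. In the DNA repair list, Rad51b and Recql had a gained region, with mean scores of 115 and 101. Single genes were found for the p53 targets (Bax, 1 of 20), the AP-1 and immediate early genes (Nr4a2, 1 of 30), the Wnt pathway (Lef1, 1 of 48), and the developmental transcription factors (Foxf2, 1 of 73). There was none among 32 fibroblast matrix, 47 TGF-beta and BMP, 28 actin cytoskeleton, or 38 cell adhesion genes, nor among 27 interferon response, 17 adipogenic, 12 myogenic, 18 epithelial, 11 haematopoietic, 9 endothelial, or 10 neural genes. With so few genes per list, nothing can be read from these shares against the 1.38% of all genes.

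H3K4me2 and H3K4me3 were already present at most gained regions in F/F cells. These libraries took no part in the rule, although each shared its H3 control library with an H3K4me1 library. All 6 H3K4me3 libraries had a peak in 177 of 219 regions (80.8%, against 63.6% of all promoter regions), and none had one in 27 (12.3%, against 32.5%). All 6 H3K4me2 libraries had a peak in 205 (93.6%, against 77.5%), and none had one in 4 (1.83%, against 13.7%), at Dmtf1, Cdk5r1, Sgms2, and Ep400. In no region was there an H3K4me2 or H3K4me3 peak in all 3 libraries of one genotype and none of the other. Among all promoter regions, such a peak was found in FC/FC only in 0.0199% for H3K4me2 and 0.0265% for H3K4me3, and in F/F only in 0.484% and 0.0431%. The share of gained regions with an H3K4me3 peak was 83.4% ± 1.47 over the F/F libraries and 84.9% ± 0.791 over the FC/FC ones (SD, n = 3 each), and the share with an H3K4me2 peak was 95.6% ± 1.05 and 96.7% ± 1.05. For H3K4me3 the libraries of the genotypes overlapped. The H3K4me2 shares were 95.0%, 95.0%, and 96.8% in F/F and 95.4%, 97.3%, and 97.3% in FC/FC, and overlapped only through FC/FC replicate 1, the library with the doubtful antibody number. Without it, the genotypes were barely apart, with 213 of 219 regions in FC/FC replicates 2 and 3 and 212 in F/F replicate 3. At the lost promoter regions, the shares were far lower, with 13.0% ± 0.763 and 13.5% ± 0.441 for H3K4me3.

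**Figure D3:**
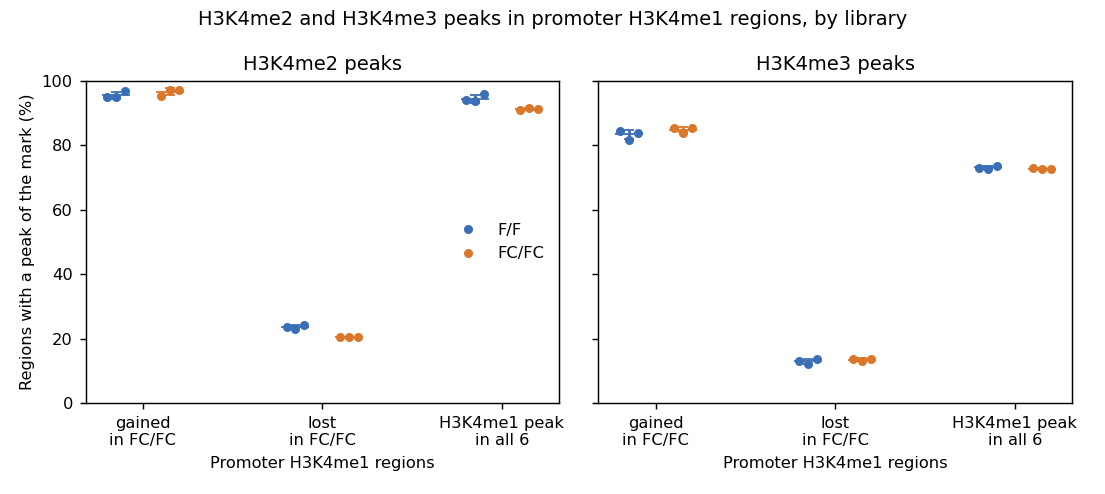
Percentage of promoter H3K4me1 regions with an H3K4me2 (left) or H3K4me3 (right) peak in each library (points) with the mean and SD of 3 libraries, for regions gained, lost, or with an H3K4me1 peak in all 6 libraries. At the gained regions, F/F (blue) and FC/FC (orange) libraries lie between 81.7% and 85.4% for H3K4me3 and between 95.0% and 97.3% for H3K4me2.

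The 177 regions with H3K4me3 in all libraries mostly reached across the edge of an H3K4me3 peak. The median share of such a region covered by H3K4me3 peaks was 78.1%, 85.1%, and 87.8% in the F/F and 76.2%, 89.1%, and 79.4% in the FC/FC libraries. Only 13 to 47 of the 177, depending on the library, lay wholly inside an H3K4me3 peak. For H3K4me2, 83, 111, and 110 lay wholly inside a peak in F/F and 74, 139, and 143 in FC/FC. In each genotype, the lowest value was that of replicate 1. Among all 30176 promoter regions, 3893, 6040, and 5907 lay wholly inside an H3K4me2 peak in F/F and 4118, 8924, and 9861 in FC/FC. The higher counts of FC/FC replicates 2 and 3 were thus shared with promoter regions in general. The base pairs of all 219 regions covered by H3K4me3 peaks came to 64.0% ± 3.28 in F/F libraries and to 63.8% ± 4.27 in those of FC/FC (SD, n = 3 each), compared with 87.1% ± 2.91 and 90.2% ± 4.89 for H3K4me2. The H3K4me2 cover was 83.8%, 88.4%, and 89.2% in the F/F libraries and 84.6%, 93.1%, and 92.9% in those of FC/FC, so that without FC/FC replicate 1 the genotypes did not overlap, with FC/FC higher.

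Around the TSSs of these regions, H3K4me1 peak cover had a flank on either side. In FC/FC libraries, 22.5% ± 3.72 of the TSSs were covered at the start itself, 46.7% ± 3.11 at 1000 bp upstream, and 63.8% ± 2.51 at 1000 bp downstream (SD, n = 3). In F/F libraries, the values were 5.48% ± 1.58, 19.3% ± 4.24, and 22.1% ± 4.24, from peaks of other regions. This difference follows from the rule. H3K4me3 peaks, which the rule did not use, covered 86.9% ± 1.90 of these TSSs in F/F and 89.2% ± 1.73 in FC/FC, and 81.4% ± 2.06 and 81.4% ± 1.90 at 1000 bp downstream. H3K4me2 peaks covered 64.1% ± 2.30 of the TSSs at 1000 bp upstream in F/F libraries and 70.2% ± 5.64 in those of FC/FC. Of the FC/FC libraries, replicate 1 (63.9%) lay within the F/F range (61.6% to 66.2%), and replicates 2 and 3 (71.7% and 74.9%) lay above it. Over all their peaks, the H3K4me2 libraries of FC/FC replicates 2 and 3 also had wider peaks (median 1595 and 1710 bp) than those of F/F (1330 to 1514 bp). The part of peak width in these flanks was not tested.

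**Figure D4:**
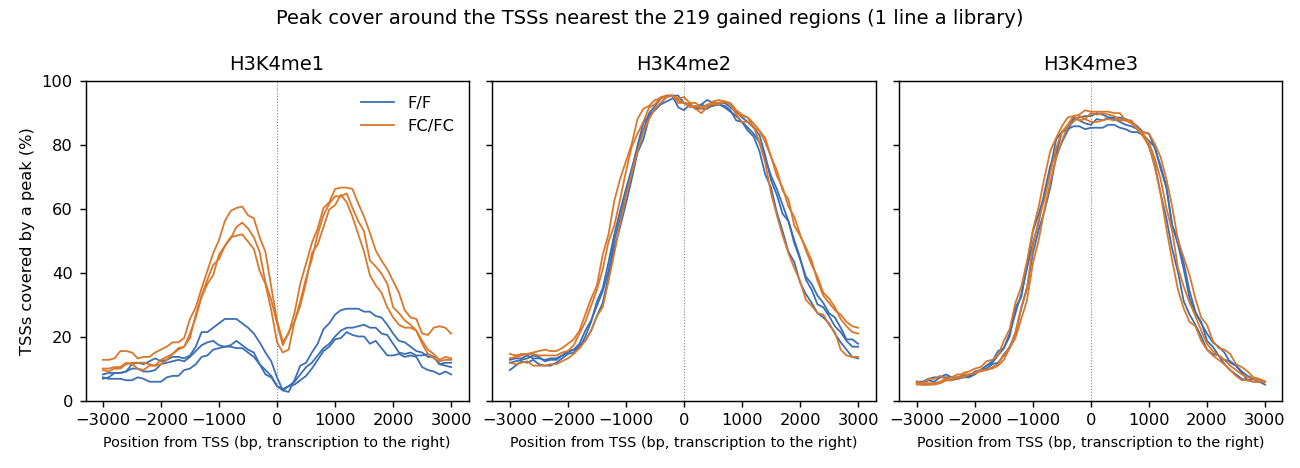
Percentage of the TSSs nearest the 219 gained regions that were covered by a peak of each library, by position from the TSS in bp, with 1 line per library. H3K4me1 in FC/FC (orange) has a flank on each side and a dip at the TSS, and the H3K4me3 lines of F/F (blue) and FC/FC overlie each other. On the flanks, the H3K4me2 lines of FC/FC replicates 2 and 3 lie above those of F/F (52.1% and 51.6% against 37.0% to 44.7% at 2000 bp downstream). H3K4me2 peaks of these libraries were wider over all their peaks, not only here.

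A smaller class of 27 gained regions had no H3K4me3 peak in any library. Their centres lay farther from the TSS (median 3113 bp, compared with 914 bp for the 177), 17 of 27 were near a CpG-rich TSS, and 13 of 27 had H3K4me2 in all 6 libraries. The Ube3a region, at a ubiquitin ligase gene, had the highest mean score of the class, scored 82.9, 145, and 154, and had its nearest F/F peak 385895 bp away. The Avpr1a region, 4017 bp from the TSS of the vasopressin receptor gene, scored 91.9, 80.9, and 183. The others with high scores were at Gas2 (158, 99.8, and 86.6), Cdk5r2 (112, 146, and 72.9), Etv2 (199, 64.7, and 51.9), and Gpbp1 (85.0, 54.0, and 173). The Grin1 region, whose sequence is shown above, had a mean score of 72.8 and contained the TSS.

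Of the regions that contained a TSS, 32 of 44 had H3K4me3 in all libraries. The highest mean scores were at Bax (128, 126, and 101), 2610316D01Rik (177, 92.0, and 84.4), 9530062K07Rik (91.9, 151, and 109), Fam110c (112, 140, and 77.7), Cox5b (106, 95.4, and 118), and Bcat1 (130, 127, and 58.8). At the other end, the 3 lowest means among all 219 were 54.3 at Rpgr, 56.5 at Commd8, and 56.5 at Tsc22d3. The gained regions nearest to the 5 kb limit were those of Commd8 (4486 bp), Gpbp1 (4454 bp), and Gas2 (4353 bp). Beyond it, the nearest regions were at Lvrn (5005 bp), Mir1907 (5040 bp), and Clk1 (5089 bp).

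Read levels at gained regions differed by small factors. RPKM were deposited over transcripts extended by 500 bp, which mostly reach far outside a region. In 11 short transcripts, at least 25% of the span lay in a gained region. Their mean H3K4me1 RPKM in FC/FC was 1.10 to 1.36 times that in F/F (median 1.18), and in 7 of 11 every FC/FC library lay above every F/F library. Over all 8567 genes past the filter this was so for 11.8%, and the reverse for 18.7%. At Rpl15, with 68.0% of the span in the region, H3K4me1 RPKM was 1.43, 1.51, and 1.41 in F/F and 1.67, 1.61, and 1.89 in FC/FC. At Hist1h4i, a histone H4 gene, it was 1.52, 2.0, and 1.84 in F/F and 2.17, 2.87, and 2.24 in FC/FC. At Atp5g3, it was 1.25, 1.50, and 1.60, compared with 1.82, 1.80, and 1.76. At Mir3086, which had 78.8% of its span in a region, it was 2.07, 1.86, and 1.57 in F/F and 2.0, 2.20, and 1.85 in FC/FC, and the groups overlapped. All of the F/F values were above 0, although each span also reached outside its region. For H3K4me2 the ratios of the 11 were 1.01 to 1.25 (median 1.12), and for H3K4me3 they were 0.970 to 1.32 (median 1.02).

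**Figure D5:**
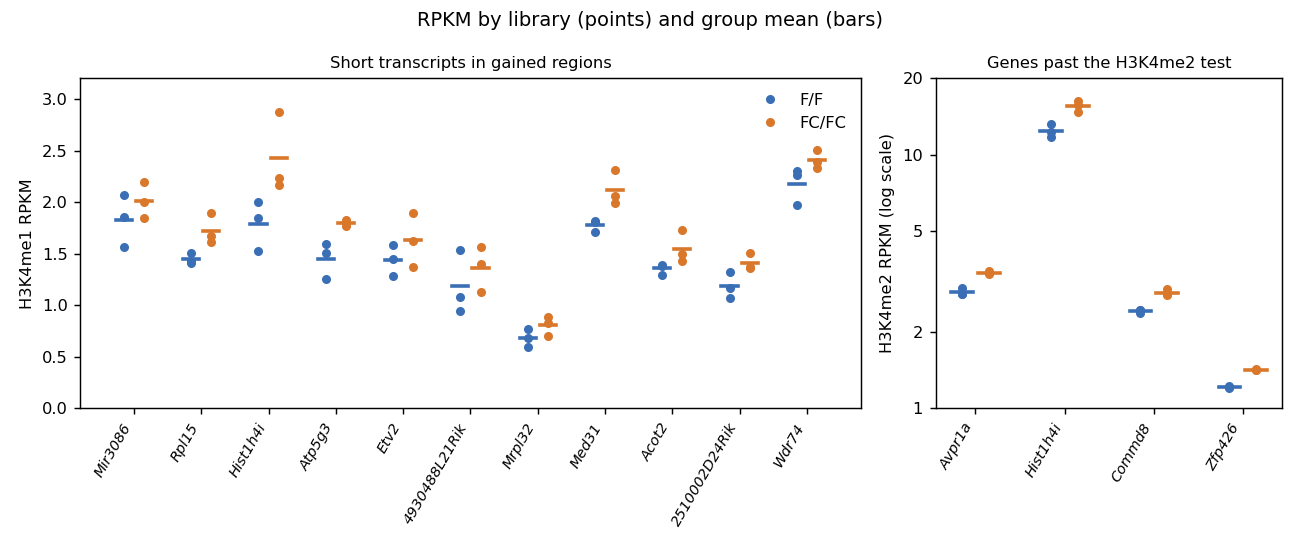
Left, H3K4me1 RPKM of the 11 transcripts with at least 25% of their span in a gained region. Right, H3K4me2 RPKM (log axis) of the 4 genes past the test. Points are libraries, bars are means of 3, F/F blue and FC/FC orange. Differences are small (at most 1.36 times on the left), and the groups overlap at Mir3086, Etv2, 4930488L21Rik, and Mrpl32.

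Few genes at gained regions passed the test for H3K4me2 over the whole gene. Limma was fitted on log2(RPKM + 0.1) over 9986 genes, of which 128 of the 218 genes at gained regions passed the filter of RPKM above 1 in at least 3 libraries. Of these, 4 rose at an adjusted p under 0.05 and 0 fell, compared with 0.591% of all genes tested that rose and 1.55% that fell. That balance over all genes, 59 higher and 155 lower, moved to 28 and 406 after centring libraries on their medians and to 28 and 319 after quantile normalization. The libraries did not overlap and FC/FC was higher at 53 of 128 genes (41.4%, against 27.2% of all genes). FC/FC was lower without overlap at 3 (2.34%, against 8.43%), which were Tada2a, Reep3, and Zbtb18. Among the 53, Hmmr, 1810030O07Rik, and Aldh7a1 passed the filter only through FC/FC, which fixed their lack of overlap. The share over all genes also holds such genes. The median log2 fold change was 0.11 over the 128 and 0.07 over all genes, whose upper quartile was 0.13. Without the H3K4me2 library that lists the other antibody number, 40 of 124 rose and 1, Tada2a, fell, against 21.3% of all genes that rose and 8.55% that fell. Leaving out FC/FC replicate 2 or 3 or any of the 3 F/F replicates gave 0 limma calls among them. Over all genes, these fits gave 0 to 18 calls. At an unadjusted limma p under 0.05, 26 to 36 genes at gained regions were higher and 0 to 3 lower in these fits. The shares over all genes were not taken there, so nothing particular to these genes can be read from the counts. The median log2 fold change over all genes was also above 0 in these fits (0.07 to 0.08). With all libraries, 49 of the 128 (38.3%) were higher and 2 lower, against 2139 (21.4%) and 761 of all 9986.

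The 4 genes that rose were Avpr1a, Hist1h4i, Commd8, and Zfp426. Avpr1a had H3K4me2 RPKM of 2.83, 2.82, and 2.98 in F/F and 3.41, 3.47, and 3.39 in FC/FC (log2 fold change 0.24, SE 0.04, limma adjusted p = 0.0421). Hist1h4i had 12.3, 11.7, and 13.2 in F/F and 15.7, 14.7, and 16.2 in FC/FC (0.32, SE 0.06, limma adjusted p = 0.0477). In both genes, every FC/FC library was above every F/F library. Commd8, of the COMM domain family, had 2.45, 2.44, and 2.38, compared with 2.80, 2.95, and 2.81 (0.23, SE 0.04, limma adjusted p = 0.0477). Zfp426, a zinc finger gene, had 1.20, 1.22, and 1.22, compared with 1.42, 1.41, and 1.42 (0.21, SE 0.04, limma adjusted p = 0.0477). These calls stood close to the threshold. After quantile normalization none of the 4 passed, and after centring on medians only Hist1h4i did. At Kmt2d, H3K4me2 RPKM reached 2.55, 2.46, and 2.49 in the F/F libraries and 2.89, 2.82, and 2.69 in the FC/FC libraries, which did not pass (0.16, SE 0.04, limma adjusted p = 0.0901).

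No gene at a gained region passed the test for H3K4me3. Of 9073 genes fitted with limma, 132 were genes at gained regions, and 0 rose or fell (0% of all genes in either direction). At an unadjusted p under 0.05, 6 of the 132 were higher and 0 lower, compared with 156 and 182 of all genes, and limma-voom on recovered reads also gave 0 calls. The median log2 fold change was 0.01 for the 132 and 0.01 for all genes. FC/FC libraries were above F/F without overlap at 7 genes (5.30%, against 3.41%) and below at 4 (3.03%, against 3.87%), which were Zfp389, Nabp2, Topbp1, and Cep57l1. The 3 smallest p-values were at Avpr1a, Hist1h4i, and Foxf2. Avpr1a had H3K4me3 RPKM of 0.861, 0.966, and 0.946 in F/F and 1.09, 1.42, and 1.23 in FC/FC (0.39, SE 0.09, limma adjusted p = 0.708). Hist1h4i had 7.21, 7.63, and 7.35, compared with 8.15, 10.3, and 9.44 (0.32, SE 0.09, limma adjusted p = 0.846). For Foxf2, a forkhead factor of mesenchyme, the values were 1.93, 1.64, and 1.82, compared with 2.37, 1.97, and 2.49 (0.32, SE 0.10, limma adjusted p = 0.950). Avpr1a and Hist1h4i thus led for both marks, although neither passed the test for H3K4me3. Avpr1a exceeded an H3K4me3 RPKM of 1 only in its FC/FC libraries. It therefore entered this test only through the group where it was high, and its rank is no support. Avpr1a is also among the 7 genes without overlap, where the filter fixed its lack of overlap, and among the 6 with an unadjusted limma p under 0.05.

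The central 600 bp were searched on both strands for short motifs. The AP-1 motif TGANTCA was found in 30 of 219 gained regions (13.7%), against 20.9% of all promoter regions, 28.2% of lost promoter regions, and 37.9% of gained distal regions. TATAAA was found in 39.7%, against 30.5% of all promoter regions, 15.3% of lost promoter regions, and 44.5% of gained distal regions. Against all promoter regions, GGGCGG was found in 18.3% against 17.0%, CCAAT in 52.5% against 54.6%, and CACGTG in 5.94% against 8.43%. Of the genes nearest the gained regions, the tables flagged 24 regions as active (11.0%, against 23.8% of all promoter regions) and 4, at Rpl15, Hist1h4i, Hoxd11, and Rpl3, as high in γH2AX (1.83%, against 2.15%).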

How the data were processed

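The 18 H3K4me1, H3K4me2, and H3K4me3 libraries were used, 3 per genotype and mark. The other 34 of 52 samples were not analysed here. Per the labels, the authors used CASAVA 1.4, BWA 0.7.10, and MACS 1.4.2 on mm10. The peak lists they deposited give a score for each peak, called per library against an H3 library, with a minimum of 50. The RPKM they deposited cover 28748 RefSeq transcripts extended by 500 bp. RPKM times length gave whole reads in all values (tolerance 0.01), whose sum was the normalizing total, 26714377 to 49990775 reads per library.

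Members, lists, and comparisons were chosen with earlier results of these data known. Peaks were merged where they overlapped or touched, and an overlap of at least 1 bp counted as a peak. TSSs came from the transcript coordinates of the RPKM tables, and chromosome lengths of the GRCm38.p6 genome used for sequence were checked against the regions. For limma 3.58.1 (R 4.3.3), transcripts under 250 bp were left out and the longest was kept per gene (23043 genes), with the nearest gene taken for each region. The test was made on log2(RPKM + 0.1) with a mean-variance trend and Benjamini-Hochberg adjustment over all genes that exceeded an RPKM of 1 in 3 or more libraries. A fold change on this scale understates that of low genes. In data simulated with 200 changed genes, 79% of changes of 0.5 on the log2 scale were recovered for H3K4me2 over 9986 genes. For H3K4me3, 74% were recovered over 9073 genes. Smaller changes were not simulated, and no gene at a gained region changed by as much (at most 0.32 for H3K4me2 and 0.41 for H3K4me3). Noise was drawn independently for each gene, so deviations that libraries share across genes were left out. Python 3.11.15 with numpy 2.4.6, pandas 2.3.3, and matplotlib 3.10.9 was used otherwise.

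Named regions were the 12 with the highest mean score, the 6 highest without H3K4me3, with H3K4me3 in all libraries, and with a TSS inside, the highest at each gene list and all at H3K4 methyltransferase genes, genes past a limma test or the 3 with the smallest p, and those at the limits of the rule. One named region and some sequences are not reported here. Columns flagging active and high γH2AX genes were taken as the authors deposited them.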

Additional observations from a re-analysis of the deposited data

How the results depend on the processing

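No label pairs F/F with FC/FC libraries, but library numbers run in 3 consecutive sets that each hold both genotypes. A replicate block by these sets was added after seeing the data. With it, 2 H3K4me2 genes at gained regions were called, Hist1h4i and H2-Ab1, against 4 without the block. Over all 9986 genes, 202 were called for H3K4me2 with the block (34 higher and 168 lower) and 214 without it. For H3K4me3, 1 gene was called, Avpr1a, against 0 without the block. Avpr1a had passed the H3K4me3 filter only through its FC/FC libraries. Over all 9073 genes, 49 were called for H3K4me3 with the block and 0 without it. Deviations from the genotype means correlated across genes within the sets at 0.60, 0.71, and -0.49 for H3K4me2. For H3K4me3, the values were 0.63, 0.72, and -0.22. In sets 1 and 2, the FC/FC library correlated best with the F/F library of its own set, and in set 3 it did not. With 3 sets, this cannot decide whether the sets were batches or pairs. The number of gained promoter regions (219) was 329 with a minimum score of 100 and 377 with an equal number (81444) of top peaks per library, and 342 to 780 when 1 H3K4me1 library was left out (780 without F/F replicate 3). With the score minimum only 12 of the 219 regions were among those gained, and with equal numbers 91. The lost promoter regions (131) numbered 66 within 2 kb and 220 to 485 with 1 library left out, and without F/F replicate 2 they outnumbered the gained ones (485 against 342). Among promoter regions with H3K4me3 in all 6 libraries, in alternatives added after seeing the data, gained regions (177) numbered 304 with the score minimum, 313 with equal numbers, and 279 to 648 with 1 library left out, and lost ones (16) 32 to 71 with 1 left out, so that gained regions outnumbered lost ones under all 11 alternatives. The difference in share with a peak, FC/FC minus F/F, was -0.177 percentage points for H3K4me2 in regions gained with equal numbers of H3K4me1 peaks (1.07 in the main setting) and 0 for H3K4me3 at 50% overlap (1.52), and with 1 library left out it was 0.761 to 1.67 for H3K4me2 and 0.685 to 2.05 for H3K4me3. The H3K4me2 calls at genes of gained regions (4) were 1 after centring on medians and 0 to 41 with 1 library left out. After quantile normalization they were 2, Hmmr and Rnf138, neither among the 4, and Hmmr exceeded an RPKM of 1 only in FC/FC. The cause of these shifts was not tested. H3K4me3 had 0 calls under all alternatives other than the block, and the direction of the 7 fold changes named for the 2 marks held wherever they were fitted. Centring moved the median H3K4me2 change from 0.07 to 0.02 over all genes and from 0.11 to 0.06 at genes of gained regions. A region without a peak may hold signal below the calling threshold, which these lists do not show.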
